A study of Mus musculus with 4 samples.

Results

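Wide H3K27ac regions are the stretches that the peak caller joined from more than 1 of its 500 bp windows until they spanned at least 900 bp. They were chosen by their measured width, as the rows on chromosomes 1 to 19 of the deposited region lists whose end minus start was at least 900 bp. In all, 309 of 35547 deposited regions were wide. Of these, 72 came from *mdx* IKKβf/f hearts, which list 12540 regions on chromosomes 1 to 19, and 237 came from *mdx* HRTΔIKKβ hearts, which list 22935. Because width was measured in the same libraries, the number, width and tag content of these regions are descriptions of how they were selected. Both groups were whole hearts from the dystrophin-deficient *mdx* mouse at 7 months of age. In *mdx* HRTΔIKKβ mice, Cre driven by the alpha myosin heavy chain promoter (Myh6-cre) removes, in cardiomyocytes, the floxed gene of IKKβ, a kinase upstream of NF-κB. The *mdx* IKKβf/f controls carry the floxed gene without Cre. Other cells of the *mdx* HRTΔIKKβ heart keep IKKβ, and in chromatin of a whole organ fewer cells carrying a mark and less of the mark per cell cannot be told apart. Each genotype has 1 ChIP library and 1 input library (chromatin sequenced without immunoprecipitation), so the spread between hearts is unknown and differences between genotypes carry no test. Intervals given below cover counting error only.

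Acetylation of lysine 27 on histone H3 is laid down by the acetyltransferases p300 and CBP and removed by histone deacetylases. It marks active enhancers and active promoters. Where many enhancer elements lie side by side, the mark can run over several nucleosomes as 1 broad domain, which is why width is often examined beside height. In the heart such domains are known at genes for contraction, ion transport and cardiac transcription factors.

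Central stretches of 300 bp are printed from 6 wide regions, picked for the reasons given with each. The stretches are richer in GC than the median wide region, although the whole *Kalrn* region, at 47.6%, is not. They were read from the plus strand of the mm9 assembly (NCBIM37), and capitals mark CpG dinucleotides. The first pair comes from the *mdx* IKKβf/f list. The stretch in exon 2 of *Rtl1*, an imprinted gene derived from a retrotransposon, lies at chr12:110828527-110828826 and is shown because its region held the most tags per kb of that genotype and 20 CpG fall in the stretch. The stretch in exon 2 of *Dclk3*, a doublecortin-like kinase, lies at chr9:111370708-111371007 and belongs to the widest region that overlapped the other list.
Rtl1: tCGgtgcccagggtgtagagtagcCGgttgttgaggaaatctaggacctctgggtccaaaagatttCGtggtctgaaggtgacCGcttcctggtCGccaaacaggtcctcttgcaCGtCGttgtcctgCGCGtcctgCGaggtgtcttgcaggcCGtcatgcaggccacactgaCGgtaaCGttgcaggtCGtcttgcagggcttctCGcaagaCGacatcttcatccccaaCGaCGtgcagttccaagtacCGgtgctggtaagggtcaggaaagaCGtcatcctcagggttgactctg
Dclk3: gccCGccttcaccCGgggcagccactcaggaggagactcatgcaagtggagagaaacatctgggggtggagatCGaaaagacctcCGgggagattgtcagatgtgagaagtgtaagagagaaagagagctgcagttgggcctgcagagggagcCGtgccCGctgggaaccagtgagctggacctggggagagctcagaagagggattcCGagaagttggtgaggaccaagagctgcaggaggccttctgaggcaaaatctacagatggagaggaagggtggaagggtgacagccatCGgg
The next 4 come from the *mdx* HRTΔIKKβ list. The *Igsf21* stretch (immunoglobulin superfamily member 21, chr4:139800034-139800333, intron 1) belongs to a region found in both genotypes. The *Trpm2* stretch (a calcium-permeable cation channel, chr10:77401069-77401368) belongs to a region among the 6 widest. The *Jph2* stretch (junctophilin 2, which ties the sarcoplasmic reticulum to the T-tubule, chr2:163202109-163202408, intron 2) belongs to a calcium-handling gene. The *Kalrn* stretch (a guanine nucleotide exchange factor, chr16:34395616-34395915, intron 1) is shown because its region has 0 CpG over 976 bp.
Igsf21: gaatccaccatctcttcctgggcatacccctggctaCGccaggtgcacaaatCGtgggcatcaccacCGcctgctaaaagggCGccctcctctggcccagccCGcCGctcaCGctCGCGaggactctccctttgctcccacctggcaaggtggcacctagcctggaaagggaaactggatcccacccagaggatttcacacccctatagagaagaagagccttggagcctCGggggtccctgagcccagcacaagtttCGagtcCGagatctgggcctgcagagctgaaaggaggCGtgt
Trpm2: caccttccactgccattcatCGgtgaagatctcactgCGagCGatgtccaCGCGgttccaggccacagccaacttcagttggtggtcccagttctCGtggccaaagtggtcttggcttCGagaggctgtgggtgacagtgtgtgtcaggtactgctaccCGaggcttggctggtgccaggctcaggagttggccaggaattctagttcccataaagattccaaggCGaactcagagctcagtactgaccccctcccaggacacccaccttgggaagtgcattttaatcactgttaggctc
Jph2: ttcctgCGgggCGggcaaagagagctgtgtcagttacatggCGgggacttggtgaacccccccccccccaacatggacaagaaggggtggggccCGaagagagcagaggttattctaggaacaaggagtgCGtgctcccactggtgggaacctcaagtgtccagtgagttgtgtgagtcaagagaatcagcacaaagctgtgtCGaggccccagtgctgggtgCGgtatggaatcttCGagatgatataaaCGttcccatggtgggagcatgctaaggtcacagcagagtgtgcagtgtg
Kalrn: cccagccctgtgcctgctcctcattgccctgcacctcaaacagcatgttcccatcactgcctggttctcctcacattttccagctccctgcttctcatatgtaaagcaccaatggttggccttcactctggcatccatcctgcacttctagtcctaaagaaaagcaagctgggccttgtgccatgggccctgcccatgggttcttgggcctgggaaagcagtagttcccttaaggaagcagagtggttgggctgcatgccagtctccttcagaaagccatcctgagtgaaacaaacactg
The 300 bp stretches held 20 CpG at *Rtl1*, 13 at *Igsf21*, 9 at *Trpm2*, 9 at *Jph2*, 8 at *Dclk3* and 0 at *Kalrn*, with GC contents from 53.7% at *Kalrn* to 61.3% at *Igsf21*.

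More regions of every width class were listed in *mdx* HRTΔIKKβ hearts, and the ratio between genotypes was larger among wide regions than among single windows. Wide regions made up 0.574% of the *mdx* IKKβf/f list (95% Wilson interval 0.456% to 0.722%) and 1.03% of the *mdx* HRTΔIKKβ list (0.910% to 1.17%). Regions of exactly 500 bp numbered 10758 and 19266, a ratio of 1.79. Regions over 500 bp and under 900 bp, the narrowest of which spanned 625 bp, numbered 1710 and 3432, a ratio of 2.01. From 900 to under 1200 bp there were 54 and 185, a ratio of 3.43, and at 1200 bp or more there were 18 and 52, a ratio of 2.89. Put the other way, 76.7% of wide regions (71.7% to 81.1%) came from *mdx* HRTΔIKKβ hearts, where 64.7% of all regions did. The libraries were not called at the same stringency, since the caller required 2.01 times the tags it expected per window in *mdx* IKKβf/f and 1.92 times in *mdx* HRTΔIKKβ. When only *mdx* HRTΔIKKβ regions with a peak score at the larger of these ratios were kept, 156 of 13876 were wide (1.12%). The ratio of wide regions between genotypes then fell from 3.29 to 2.17. The 13876 regions kept stand beside 12540 in *mdx* IKKβf/f, where the full lists had a ratio of 1.83. Widths were left as called at the lower threshold, so the joining of windows was not made equal.

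**Figure D1:**
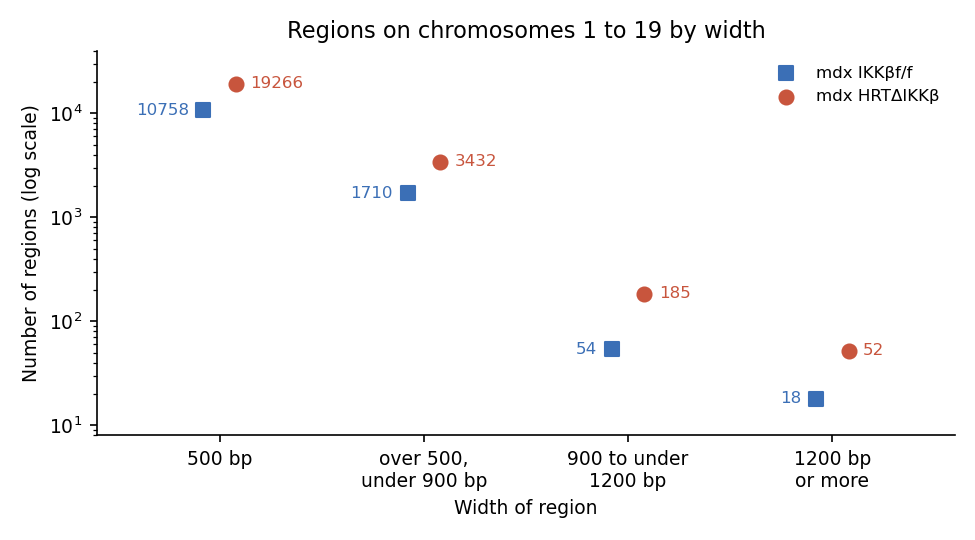
Number of regions on chromosomes 1 to 19 (vertical axis, log scale) in each width class, with squares for mdx IKKβf/f and circles for mdx HRTΔIKKβ and the count printed beside each point. The circles sit above the squares in all 4 classes, and the gap is widest from 900 to under 1200 bp, with 185 against 54 regions.

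Wide regions were spread over nearly all autosomes. In *mdx* HRTΔIKKβ hearts each of the 19 autosomes held between 7 (chromosome 14) and 21 (chromosome 5). In *mdx* IKKβf/f hearts the highest number was 8, on chromosomes 5 and 7, and chromosomes 14 and 19 held 0. The X and Y chromosomes and unplaced sequence held 0 wide regions in either list, among 26 regions for *mdx* IKKβf/f and 46 for *mdx* HRTΔIKKβ. The median width was 1004 bp in *mdx* IKKβf/f (quartiles 934 and 1177) and 1014 bp in *mdx* HRTΔIKKβ (941 and 1170). Of the control list, the members nearest the limit were regions of 901 bp in *Rph3a* with 8.99 normalized tags and of 901 bp near *Kcna1* with 9.51. Just outside it lay regions of 899 bp in *Myadml2* with 10.7 and in *Sfxn5* with 9.16. In *mdx* HRTΔIKKβ, regions of 900 bp in *Myo1d* (9.13), *Ifnar1* (10.4) and *Vwa5b1* (9.77) were just inside, and regions of 899 bp in *Col22a1* (8.01) and at *Abcc8* (10.6) just outside.

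Wide regions were longer but not denser than single windows. Normalized tags are tags scaled to 10000000 per library, and their number per kb of region had a median of 10.3 in *mdx* IKKβf/f (quartiles 9.78 and 11.1) and 9.94 in *mdx* HRTΔIKKβ (9.44 and 10.8). Regions of exactly 500 bp had medians of 10.4 and 9.92, and the caller's own genome-wide expectation was 5 per kb. The ratio of the medians for wide regions, *mdx* HRTΔIKKβ over *mdx* IKKβf/f, was 0.965, and its direction turned with tags not scaled for depth (1.04) and with fold over input (1.06). The peak score, the caller's own value for each region, had a median of 31.5 in wide *mdx* IKKβf/f regions, where the threshold was 29. In wide *mdx* HRTΔIKKβ regions its median was 33, where the threshold was 30. The score is not the deposited tag count. In 500 bp regions that count went down to 22 and 24, while scores began at 29 and 30. The score lay within 5 of the threshold in 55 of 72 wide regions of *mdx* IKKβf/f (76.4%), beside 79.7% of all regions. In *mdx* HRTΔIKKβ it did so in 169 of 237. There the upper quartile of the score was 36 in wide regions and 35 in all regions, so all regions up to that quartile lay within 5 of the threshold of 30. The count is therefore not read as a trait of wide regions. Averaged over the whole region, tags per 500 bp were below the window threshold in 24 of 72 wide regions of *mdx* IKKβf/f (33.3%, 23.5% to 44.8%) and in 75 of 237 of *mdx* HRTΔIKKβ (31.6%, 26.1% to 37.8%). The same held for 22.6% and 25.2% of all regions. It also held for 21.8% of the 500 bp regions of *mdx* IKKβf/f, so the deposited count is not the one held to the threshold. Across wide regions tags per kb were lower in wider ones (Spearman correlation −0.36 over 72 regions and −0.33 over 237, which share a library and a threshold). Width is the divisor of tags per kb and was the measure of selection, so a negative sign is partly built in. It is not read as a result. Under the same limit, the median tags per kb in *mdx* IKKβf/f were 10.9 from 900 to under 1200 bp and 9.43 at 1200 bp or more. In *mdx* HRTΔIKKβ they were 10.1 and 9.34.

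**Figure D2:**
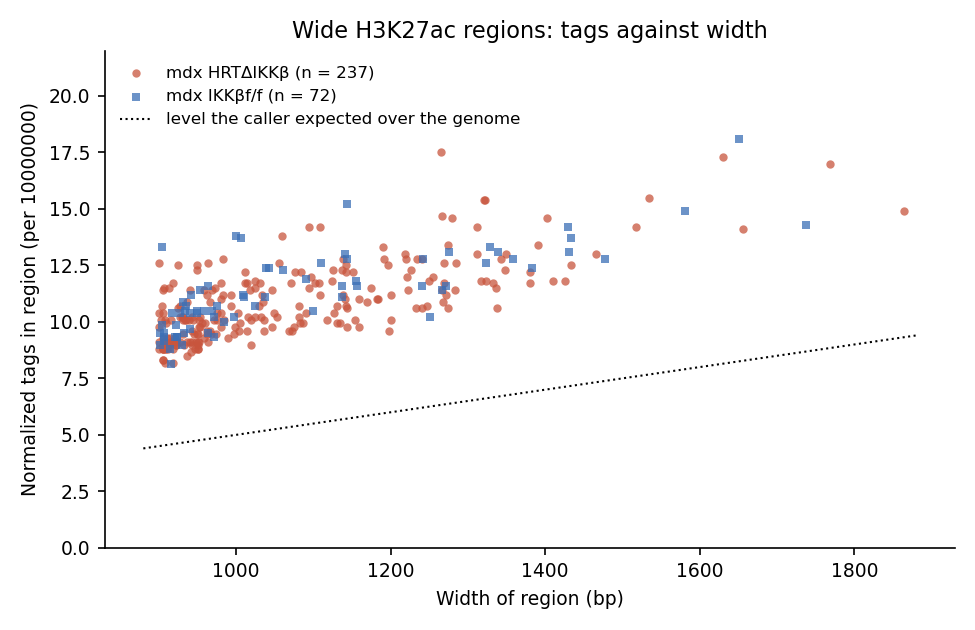
Normalized tags per region (vertical axis, tags per 10000000) against width (horizontal axis, bp) for the 237 wide regions of mdx HRTΔIKKβ (circles) and the 72 of mdx IKKβf/f (squares), with a dotted line at the 5 tags per kb that the caller expected. Both clouds rise together above the line, with medians of 10.6 tags per region for mdx HRTΔIKKβ and 11.1 for mdx IKKβf/f, an order that turns for tags not scaled for depth (66 and 64).

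A fold of 8 or more over input was rarer among wide regions than over all regions, while the medians differed little. Fold over input, for which the authors required at least 4, had a median of 4.93 in wide *mdx* IKKβf/f regions (range 4.02 to 14.7). In wide *mdx* HRTΔIKKβ regions the median was 5.24 (4 to 22.9). Over all regions the medians were 5.16 and 5, so the wide median was the lower in *mdx* IKKβf/f and the higher in *mdx* HRTΔIKKβ. Fold reached 8 in 4 of 72 wide regions of *mdx* IKKβf/f (5.56%, 2.18% to 13.4%) against 14.8% of all regions. In *mdx* HRTΔIKKβ it did so in 22 of 237 (9.28%, 6.21% to 13.7%) against 20.7%. Fold divides ChIP tags by input tags, and both were more numerous in wide than in 500 bp regions. Each wide region held at least 3 input tags in *mdx* IKKβf/f hearts and at least 2 in *mdx* HRTΔIKKβ, with medians of 9 and 7. Among the 500 bp regions, 155 of 10758 and 552 of 19266 held 0. Input tags per kb had medians of 8.22 in wide and 8 in 500 bp regions of *mdx* IKKβf/f, and of 6.79 and 8 in *mdx* HRTΔIKKβ. The part of input counts in the difference between wide and narrow regions was not tested.

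The highest folds came at regions with few input tags. The control list's highest was 14.7, over 3 input tags, in an intergenic region of 1010 bp at chr6:144941518-144942528, whose nearest gene start, 39340 bp away, is that of *Bcat1*, an aminotransferase of branched-chain amino acids. It was followed by 10.1 in intron 1 of *Oca2*, a melanosome transporter, and 8.95 in intron 18 of *Rph3a*, a synaptic vesicle protein. In *mdx* HRTΔIKKβ the 4 highest were 22.9 in intron 1 of *Gm14221*, 15.7 in intron 2 of *2510002D24Rik*, 12.4 in intron 3 of *ORF63* and 12 in intron 1 of *Kalrn*. These 4 had 2 or 3 input tags each.

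The widest regions lay mostly within introns or between genes, as did most regions of each list. In *mdx* IKKβf/f the widest spanned 1737 bp in intron 5 of *Camta1*, a calmodulin-binding transcription activator, at chr4:150784655-150786392. It held 14.3 normalized tags (95% Poisson interval 11.4 to 17.8), which is 8.23 per kb and among the lowest densities of the 72. Next came 1651 bp in intron 2 of the non-coding transcript *Gm16004*, centred 967 bp from a start of *SNORA17*. It was followed by 1581 bp in exon 2 of *Dclk3* and 1477 bp in intron 4 of *Ctnnbl1*, whose product associates with the spliceosome. A region of 1433 bp was intergenic, 74187 bp upstream of the *Egflam* start. In *mdx* HRTΔIKKβ the widest spanned 1864 bp of chromosome 18 between genes, with 14.9 normalized tags (12 to 18.2), 7.99 per kb and 38.2% GC. A region of 1768 bp lay in intron 4 of *Glb1l2*, centred 1734 bp upstream of a *Glb1l2* start. One of 1656 bp lay in intron 11 of *Trpm2*, centred 436 bp upstream of an internal *Trpm2* start, with 14.1 normalized tags (11.3 to 17.4). Regions of 1630 bp in the non-coding gene *Gm12962* and of 1518 bp near *Gtf2i*, a general transcription factor, were also among the 6 widest.

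The most tags per kb lay in exons, introns and intergenic sequence alike. In *mdx* IKKβf/f the most tags per kb, 14.7, were in the 904 bp region over exon 2 of *Rtl1* at chr12:110828224-110829128, with 13.3 normalized tags (10.5 to 16.6). Its centre is 19 bp from the start of *Mir431*, a microRNA gene that overlaps *Rtl1*. It was followed by exon 9 of *Rhbdl3*, a rhomboid-like protein (13.8 per kb), and by exon 29 of the nucleoporin gene *Nup214* (13.6 per kb). Intron 16 of *Arhgap44*, a GTPase-activating protein, had 13.3 per kb and the highest peak score of the 72, at 51. A second region of the *Rtl1* locus, at chr12:110917751-110918715, followed with 12 per kb. In *mdx* HRTΔIKKβ the most were 14 per kb in a 900 bp region at chr6:120448045-120448945, 4518 bp upstream of *Cecr6*. Exon 2 of the melatonin receptor gene *Mtnr1b* followed with 13.8 over 1265 bp. A region 15328 bp from a start of *Wnt7a*, a secreted Wnt ligand, had 13.5, intron 15 of *Erc2*, a presynaptic scaffold, had 13.2, and a region 116737 bp upstream of *Ccnd1*, which encodes cyclin D1, had 13.0. The intervals on normalized tags of these regions overlap one another, so their order within a list is not resolved by counting.

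Position relative to gene starts was not used in the selection, and in *mdx* HRTΔIKKβ hearts the share of regions near a start was higher among wide than among narrower ones, with intervals that did not overlap. There, 45 of 237 wide regions (19%, 14.5% to 24.5%) were centred within 3 kb of an annotated gene start, against 12.2% of all regions and 12.1% (11.7% to 12.5%) of regions under 900 bp. Among the controls 8 of 72 were (11.1%, 5.74% to 20.4%), against 12% of all regions. The intervals of the wide shares of the genotypes overlap. Within 10 kb of a start lay 86 of 237 (36.3%, 30.4% to 42.6%) in *mdx* HRTΔIKKβ, where 29.5% of all regions did, and 24 of 72 (33.3%, 23.5% to 44.8%) in *mdx* IKKβf/f, where 28.6% did. With starts of protein-coding genes only, the 3 kb counts were 34 of 237 (14.3%, 10.5% to 19.4%) beside 9.43% of all regions, and 4 of 72 (5.56%, 2.18% to 13.4%) beside 9.31%. In *mdx* HRTΔIKKβ the regions under 1200 bp supplied 39 of the 45, out of 185, and those of 1200 bp or more supplied 6, out of 52. The median distance to the nearest start was 19.4 kb for wide and 25.7 kb for 500 bp regions in *mdx* HRTΔIKKβ, and 28.0 and 28.1 kb in *mdx* IKKβf/f.

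**Figure D3:**
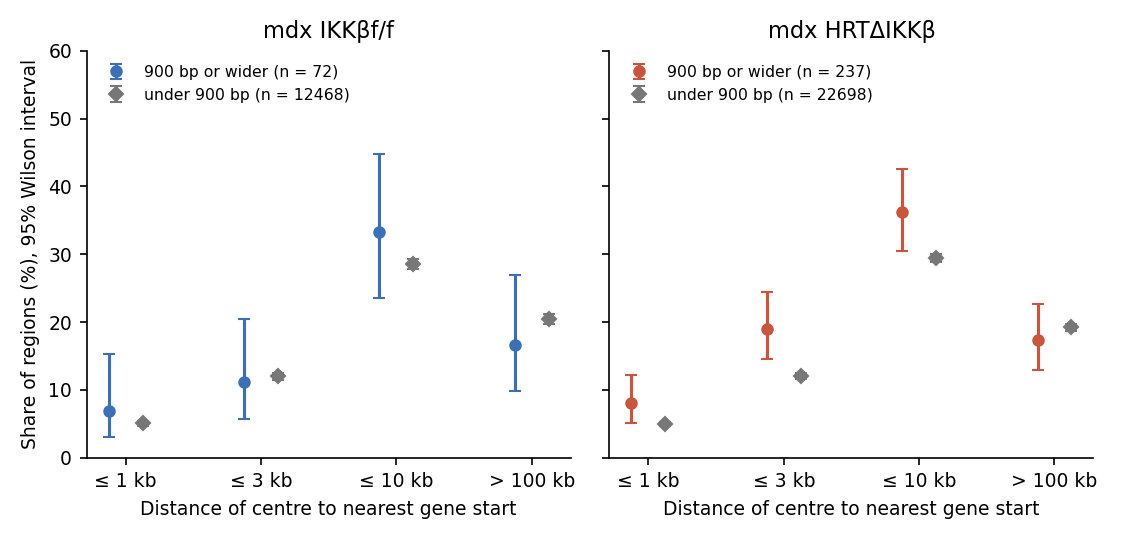
Share of regions (vertical axis, percent, with 95% Wilson intervals) whose centre lies within 1, 3 or 10 kb or over 100 kb from the nearest gene start, for wide regions (coloured circles) and regions under 900 bp (grey diamonds) of each genotype. In mdx HRTΔIKKβ the wide share at 3 kb, 19%, has an interval that lies above the narrow share of 12.1%, while in mdx IKKβf/f the wide interval spans the narrow share.

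Away from starts, the wide regions fell into the same kinds of sequence as the rest. Introns beyond 3 kb of a start held 22 of 72 wide regions in *mdx* IKKβf/f (30.6%, 21.1% to 42.0%) and 77 of 237 in *mdx* HRTΔIKKβ (32.5%, 26.8% to 38.7%), beside 33.4% and 34.1% of all regions. Intergenic sequence held 38 of 72 (52.8%, 41.4% to 63.9%) and 107 of 237 (45.1%, 38.9% to 51.5%), beside 51.1% and 50.3%. Exons held 4 of 72 in *mdx* IKKβf/f (5.56%, 2.18% to 13.4%), beside 3.51% of all regions. In *mdx* HRTΔIKKβ they held the remaining 8 of 237. There, exons are likewise what remains of all regions after the shares given for starts, introns and intergenic sequence.

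Within 1 kb of any gene start lay 5 of 72 wide *mdx* IKKβf/f regions (6.94%, 3% to 15.2%), beside 5.09% of all regions, and 19 of 237 wide *mdx* HRTΔIKKβ regions (8.02%, 5.19% to 12.2%), beside 5.03%. For protein-coding starts the numbers were 2 of 72 and 12 of 237. The 5th percentile of the distance to such a start was 3566 bp for wide and 1391 bp for all regions in *mdx* IKKβf/f. In *mdx* HRTΔIKKβ it was 1078 and 1356 bp. The 2 counts are not read as a trait of wide regions. The *mdx* IKKβf/f pair lay at *Klhdc4*, 89 bp from a start, with 9.51 normalized tags (7.16 to 12.4), and at *Nup214*, 184 bp from a start that begins at exon 29 of the longest transcript. In *mdx* HRTΔIKKβ some lay at the first exon or intron of their gene. The region at *Adcyap1r1*, the receptor for the neuropeptide PACAP, was centred in exon 1, 109 bp from the start, and had the highest GC content of all wide regions, 67.5%, with 84.3 CpG per kb. It held 9.13 normalized tags (6.91 to 11.8). Exon 1 of *Ociad2*, 54 bp from the start, had 8.97 (6.77 to 11.6) and 45 CpG per kb. Intron 1 of *Tcl1* had 15.4 (12.4 to 18.8), and intron 1 of *Dpp10*, which encodes an auxiliary subunit of Kv4 potassium channels, had 12.2 (9.59 to 15.2). Others were at internal starts, such as exon 5 of the postsynaptic scaffold gene *Dlgap1* with 11.7 normalized tags and intron 15 of *Dennd3* with 10.4. The region 80 bp from a start of *Pkp3*, the desmosomal protein plakophilin 3, was 10.0-fold over input with 11.2 normalized tags.

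Overlap between the genotypes was low in the lists as a whole and among wide regions. Of the 72 wide *mdx* IKKβf/f regions, 4 shared 1 bp or more with a *mdx* HRTΔIKKβ region (5.56%, 2.18% to 13.4%), where 3.18% of all regions did. Of the 237 wide *mdx* HRTΔIKKβ regions, 7 overlapped a *mdx* IKKβf/f region (2.95%, 1.44% to 5.97%), where 1.74% did. The wide intervals span the shares of all regions. Since a wide region covers more sequence, the rate was also taken per Mb covered, and was then 51.1 for wide and 60.5 for narrower regions in *mdx* IKKβf/f, and 27.5 and 32.8 in *mdx* HRTΔIKKβ. In no case was the partner wide, with 0 of 72 and 0 of 237, which allow shares of up to 5.07% and 1.60% by the Wilson interval. Over all regions an overlap with a wide region of the other genotype was also rare, at 0.0558% and 0.0174%, so nothing is read from the zeros. The partners spanned 500 to 636 bp.

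Among the 11 overlapping pairs, tags per kb were higher in *mdx* HRTΔIKKβ in 6 and higher in *mdx* IKKβf/f in 5. The log2 ratio of *mdx* HRTΔIKKβ to *mdx* IKKβf/f ran from −0.33 to 0.51 with a median of 0.08. At *Dclk3* the wide region of *mdx* IKKβf/f had 9.42 tags per kb over 1581 bp, and the *mdx* HRTΔIKKβ window inside it had 13.4 over 500 bp. At *Tmem119*, a membrane protein of osteoblasts and microglia, the values were 10.0 over 1328 bp and 11.5 over 500 bp. At the *Rtl1* locus, beside the small RNA gene *AF357428*, they were 12 over 964 bp and 9.60 over 500 bp. The fourth wide *mdx* IKKβf/f region, on chromosome 10 and 77364 bp from *Mir135a-2* and near *Nedd1*, had 11.7 over 931 bp where the *mdx* HRTΔIKKβ window had 9.92. Of these 4 the wide region was the less dense at *Dclk3* and *Tmem119*, and the denser at the other pair.

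For the 7 wide in *mdx* HRTΔIKKβ the partner was a *mdx* IKKβf/f region. Upstream of *Ccnd1* the wide region had 13.0 tags per kb and its partner 9.34. In *Erc2* the values were 13.2 and 9.68, and near *Skor2*, a transcriptional corepressor, 11.5 and 10.7. At *Igsf21*, where the partner spanned 636 bp and lay whole inside the wide region, they were 11.8 and 11.1. The wide region was the less dense at *Ift46*, an intraflagellar transport gene (9.83 against 11.1), in *Dgkg*, a diacylglycerol kinase (10.2 against 11.4), and upstream of *Tspan5* (9.97 against 10.7). In each pair 1 region was chosen for its width and the other for passing the caller's threshold, so these values carry no test of a difference.

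**Figure D4:**
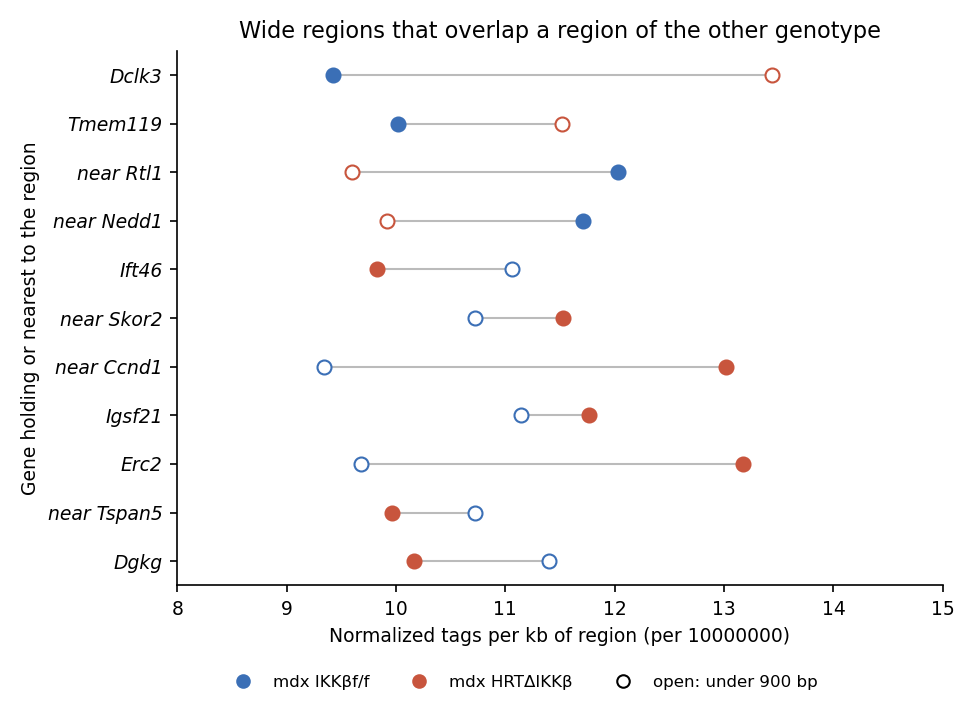
Normalized tags per kb (horizontal axis, tags per 10000000 and kb) in the 11 pairs of overlapping regions, labelled by the gene that holds the wide region or has the nearest protein-coding start, in blue for mdx IKKβf/f and red for mdx HRTΔIKKβ. Filled points are wide regions and open points their partners under 900 bp, and the red point is the higher one in 6 pairs.

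Nearness to other regions was counted within 10 kb. For the other genotype this includes every overlap, so its share cannot be smaller than that of overlap. Another region of the same list lay within 10 kb of 14 of 72 wide *mdx* IKKβf/f regions (19.4%, 12% to 30%) and of 73 of 237 wide *mdx* HRTΔIKKβ regions (30.8%, 25.3% to 36.9%), beside 15.2% and 24.3% of all regions. A region of the other genotype lay within 10 kb of 30 of 72 (41.7%, 31.0% to 53.2%) and of 43 of 237 (18.1%, 13.8% to 23.5%), beside 28.9% and 16.9% of all regions. The list searched held 22935 regions for the wide *mdx* IKKβf/f regions and 12540 for the wide *mdx* HRTΔIKKβ regions, so these shares are not compared between genotypes.

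At the level of genes, 42 of 21279 protein-coding genes (0.197%) had a wide *mdx* IKKβf/f region inside them or within 10 kb, and 157 (0.738%) had a wide *mdx* HRTΔIKKβ region. The genes with a wide region in each list were *BC046331*, *Caln1* and *Th*. At *Th*, which encodes tyrosine hydroxylase, the enzyme that begins catecholamine synthesis, both lay outside the gene and only 1445 bp apart, with 8.82 normalized tags over 915 bp in *mdx* IKKβf/f and 11.7 over 1107 bp in *mdx* HRTΔIKKβ. In *BC046331* they were in introns 2 and 8, 4002 bp apart, with 12.8 normalized tags for *mdx* IKKβf/f and 8.17 for *mdx* HRTΔIKKβ. In *Caln1*, which encodes a calmodulin-like neuronal protein, they were 166446 bp apart. A pair of wide regions in 1 genotype, inside the gene or within 10 kb, occurred at *Jph3*, the brain junctophilin, in *mdx* IKKβf/f, where the second is the region at the *Klhdc4* start described above, and at *Adcy2*, among others, in *mdx* HRTΔIKKβ. *Adcy2* encodes an adenylyl cyclase, and its pair, in introns 1 and 2, had 11.5 and 10.1 normalized tags.

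Of 300 genes on lists for cardiac muscle, calcium, fibrosis, NF-κB, chromatin and cell types, 1 had a wide region in *mdx* IKKβf/f (0.333%) and 9 had one in *mdx* HRTΔIKKβ (3%), beside the 0.197% and 0.738% of all protein-coding genes. All lists except the cardiomyocyte markers had a larger median gene length than all protein-coding genes. Longer genes give a region more room to fall in them, and the part of length in these counts was not tested. Median length was 15.6 kb over all protein-coding genes, 63.3 kb on the calcium handling list, 111 kb on the voltage-gated calcium channel list and 178 kb on the dystrophin complex list.

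The 3 calcium lists, with 42, 25 and 25 genes, held 7 of the 10 genes counted over both genotypes. No share is read from so few. The 1 in *mdx* IKKβf/f was *Camta1*, on the list of calmodulin-dependent signalling (1 of 25 genes). In *mdx* HRTΔIKKβ, calcium handling gave 2 of 42 genes, *Slc24a2* and *Jph2*. *Slc24a2* encodes a potassium-dependent sodium-calcium exchanger, and its region in exon 11 spanned 1266 bp with 14.7 normalized tags (11.9 to 18.1). The *Jph2* region, whose centre is printed above, spanned 962 bp with 11.2 (8.74 to 14.2) and 54.0 CpG per kb. Voltage-gated calcium channel genes gave 3 of 25, all for gamma subunits, of which *Cacng2* (stargazin) is best known as a partner of AMPA receptors. *Cacng7* had 11.7 normalized tags in intron 4, *Cacng4* 11.4 in intron 1 and *Cacng2* 11.4 in intron 1. Calmodulin-dependent signalling gave *Camk1g*, a calmodulin-dependent kinase, with 12.8 (10.2 to 15.9) in intron 1, 2002 bp from a start. Any region, of whatever width, was listed at 13 of 42 calcium handling genes and 13 of 25 channel genes in *mdx* IKKβf/f, and at 26 and 21 in *mdx* HRTΔIKKβ, beside 23.3% and 37% of all protein-coding genes.

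The other 3 genes of the lists had wide regions in *mdx* HRTΔIKKβ as well. *Mybpc1*, the slow skeletal myosin-binding protein C, was the 1 gene of 38 on the sarcomere list, with 10.6 normalized tags (8.17 to 13.4) over 1274 bp of intron 2. *Sgcd*, which encodes delta-sarcoglycan of the dystrophin complex and spans 1093 kb, was 1 of 21, with 11.2 (8.74 to 14.2). *Hand1*, a transcription factor of heart development, was 1 of 25, through a region centred 9982 bp upstream of it, just inside the 10 kb limit. That region had 9.29 (7.05 to 12) and was 8.29-fold over input, and its nearest gene start was that of *Gm11003*, 5036 bp away. Of the fibrosis and extracellular matrix list (29 genes found), the NF-κB pathway (26), potassium and sodium channels (28) and chromatin repressors (19), 0 genes had a wide region in either list.

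Markers of the heart's cell types were too few to read against the 0.197% and 0.738% of protein-coding genes with a wide region. Of the 10 cardiomyocyte markers (*Myh6*, *Myh7*, *Tnnt2*, *Tnni3*, *Actc1*, *Myl2*, *Myl3*, *Nppa*, *Ryr2* and *Ttn*) 0 had a wide region in either genotype. A region of any width lay inside or within 10 kb of 4 of these markers for *mdx* IKKβf/f and of 5 for *mdx* HRTΔIKKβ, where 23.3% and 37% of all protein-coding genes had one. Markers of fibroblasts (7 found), endothelial cells (6), smooth muscle and pericytes (5), macrophages and leukocytes (6) and neurons and Schwann cells (3) also had 0 wide regions. Regions of any width were listed at 3, 1, 1, 4 and 2 of them in *mdx* IKKβf/f and at 2, 4, 2, 4 and 3 in *mdx* HRTΔIKKβ. The tissue label was therefore not checked by the wide regions.

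Base composition was not used in the selection. Wide regions had a median GC content of 49.2% in *mdx* IKKβf/f (quartiles 46.3% and 53.1%) and 49.3% in *mdx* HRTΔIKKβ (46.4% and 52.2%). The 500 bp regions of both lists had 47.5%, and regions over 500 and under 900 bp had 48.5% in both. The 95% intervals of the wide medians over regions, 47.3% to 50.8% and 48.4% to 49.7%, both span that 48.5%. In *mdx* IKKβf/f the interval also spans 47.5%. The median number of CpG per kb was 13.4 and 11.0, against 10.9 and 10.2 in regions over 500 and under 900 bp and 9.98 in the 500 bp regions. Across wide regions tags per kb were higher where GC was higher (Spearman correlation 0.41 over 72 regions and 0.38 over 237 that share a library), and the part of GC content in the tag density was not tested. Averaged over the whole region, at least 50% GC together with an observed to expected CpG ratio of at least 0.6 was met by 0 of 72 in *mdx* IKKβf/f (up to 5.07%) and 3 of 237 in *mdx* HRTΔIKKβ (1.27%, 0.431% to 3.65%), beside 0.933% and 0.802% of all regions. The 3 were at *Adcyap1r1*, in *Jph2* and in the non-coding gene *C330005M16Rik*, with ratios of 0.75, 0.63 and 0.62.

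**Figure D5:**
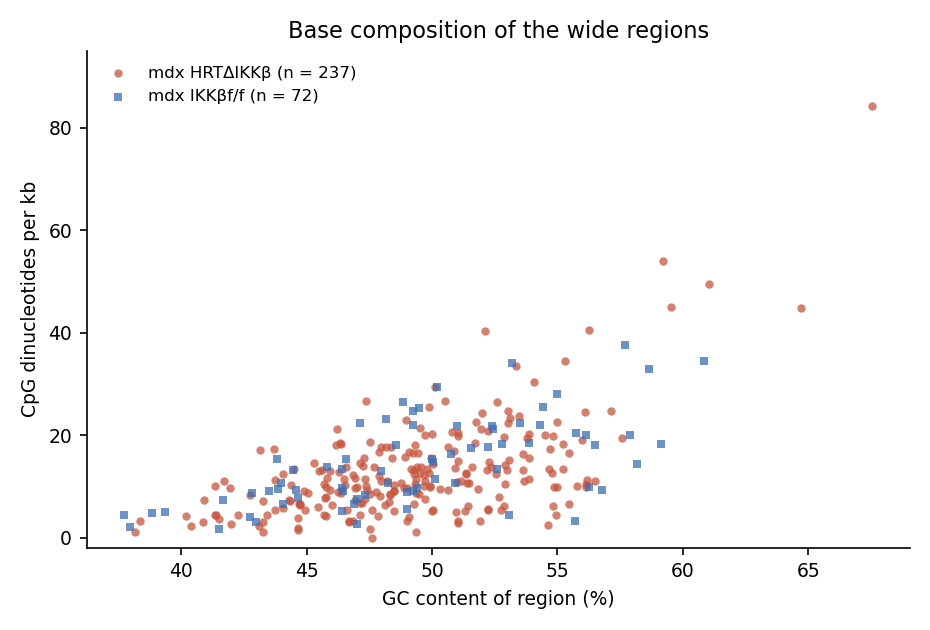
CpG dinucleotides per kb (vertical axis) against GC content (horizontal axis, percent) of the 237 wide regions of mdx HRTΔIKKβ (circles) and the 72 of mdx IKKβf/f (squares). The clouds overlap around medians of 49.3% and 49.2% GC, and the region at Adcyap1r1 stands alone at 67.5% GC and 84.3 CpG per kb.

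Short sequence motifs were searched on both strands of the central 500 bp of each region and set beside the 500 bp regions of the same list. The NF-κB consensus was found in 5 of 72 wide *mdx* IKKβf/f regions (6.94%, 3% to 15.2%; 9.13% of 500 bp regions) and in 22 of 237 wide *mdx* HRTΔIKKβ regions (9.28%, 6.21% to 13.7%; 9.06%). The GATA motif AGATAA, bound by cardiac GATA factors among others, was in 11 of 72 (15.3%, 8.75% to 25.3%; 22.7%) and in 40 of 237 (16.9%, 12.6% to 22.2%; 21.9%). The AP-1 motif TGACTCA was in 4 of 72 (5.56%; 8.77%) and 19 of 237 (8.02%; 9.01%), and the MEF2 consensus in 4 (5.56%; 4.51%) and 6 (2.53%; 4.01%). The CTCF core was in 0 of 72 and 1 of 237, beside 0.204% and 0.213% of 500 bp regions. The repeat CACACACA was in 13 of 72 (18.1%; 15.4%) and 41 of 237 (17.3%; 17.0%), and GAGAGAGA in 6 of 72 (8.33%; 7.21%) and 10 of 237 (4.22%, 2.31% to 7.59%; 7.87%). The Wilson interval of the wide share spanned the share of the 500 bp regions for each of these motifs and genotypes except GAGAGAGA in *mdx* HRTΔIKKβ. A match is a run of letters and does not show that a factor was bound.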

How the data were processed

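H3K27ac ChIP-seq was made from 1 heart library and 1 matched input per genotype. The authors kept unique Bowtie2 alignments to mm9. HOMER findPeaks then called regions from each library's tag directory in histone mode against input, with no pooling (Bowtie2 and HOMER are also named in the submitters' processing notes; their versions are not given in the sources used here). Per the file headers, ChIP depth was 57852347 tags for *mdx* IKKβf/f and 62458751 for *mdx* HRTΔIKKβ, windows were 500 bp, the expected tags per window were 14.463 and 15.615 and the thresholds 29 and 30.

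The normalized tag count of each region is a signal that the authors scaled to 10000000 tags. The findPeaks score was deposited without scaling. For fold over input, a ratio, the authors divided ChIP tags at input depth by the deposited input tags, a signal not scaled, with 0.5 in place of 0. The p-value that the authors deposited was required to be at most 0.0001 and was not used further here. The deposited clonal fold (ratio) had a median of 0.97 in wide regions of each list. The deposited region size equals end minus start.

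Regions were placed on GENCODE vM1 (NCBIM37, the mm9 assembly) by their centre. Exon and intron numbers follow the longest transcript. Gene models over 3000 kb (2) were left out as hosts. The 26 and 46 regions off chromosomes 1 to 19 held no wide region. A listed gene had a region if the centre lay in it or within 10 kb. Shares have 95% Wilson intervals, and tags of named regions exact 95% Poisson intervals. With 1 library per genotype no test was run. PCR reads without molecular identifiers are not independent molecules, so intervals cover counting error only.

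Named regions were, per genotype, the 6 widest, the 6 with most tags per kb, the 4 with the highest fold, all that overlap the other list, up to 10 within 1 kb of a protein-coding start, up to 12 at genes of the lists, and those nearest 900 bp. Of those, not all are described, and 1 gene is not reported here. Genes with a wide region in each list, or with more than 1 in a list, and the CpG-rich regions were named after their values were seen. The members and the gene lists were chosen with earlier results of these data known. Alternatives covered width, fold, peak score, gene starts, overlap and tag measures. Overlap, distance and intervals were tested on simulated data. SciPy 1.17.1, NumPy 2.4.6, pandas 2.3.3, pysam 0.24.0 and matplotlib 3.10.9 were run under Python 3.11.15.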

Additional observations from a re-analysis of the deposited data

How the results depend on the processing

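No paired analysis was possible because each genotype has 1 ChIP library and no result comes from a test. Of 79 alternative values, 46 stayed within 1.5 times the count or within the main interval and 33 moved. All 33 are given here, and where a count moved, fewer or more regions qualified by construction. In *mdx* IKKβf/f, widths of at least 800 and 1000 bp, a width of 2.5 windows or more, and any width over 500 bp gave 177, 37, 16 and 1782 regions (1.41%, 0.295%, 0.128% and 14.2% of the list). In *mdx* HRTΔIKKβ they gave 489, 125, 40 and 3669 (2.13%, 0.545%, 0.174% and 16%). Requiring 5-fold over input left 34 and 136 wide regions, and 8-fold left 4 (0.215% of the regions that passed) and 22 (0.463%). Raising the least peak score allowed to 1.5 times its value left 1 and 8 (1.73% of those that passed in *mdx* HRTΔIKKβ), and the same ratio of peak score to expected tags left 156 in *mdx* HRTΔIKKβ. The ratio of wide regions, *mdx* HRTΔIKKβ over *mdx* IKKβf/f, was 2.06 to 5.50 under the width, fold and equal-ratio settings, and 8 under the peak score setting, which rests on 1 region. With protein-coding starts only, 5.56% and 14.3% of wide regions lay within 3 kb, and 27% of wide *mdx* HRTΔIKKβ regions within 10 kb. Counting overlap with a wide region only gave 0% in each list. The ratio of median tags per kb, 0.965, became 1.04 without normalization and 1.06 for fold over input, so its direction turned. The value without normalization carries the greater depth of the *mdx* HRTΔIKKβ library by construction, and for fold over input the cause was not tested. Depth limits wide regions to 47 to 109 tags each, so that the interval of a single region reaches well past its neighbours in rank. At *Rtl1* it was 10.5 to 16.6 normalized tags, where the 72 wide *mdx* IKKβf/f regions ran from 8.12 to 18.1. With 72 wide regions, *mdx* IKKβf/f shares are known less closely than those over 237.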
